A study of Mus musculus with 14 samples.

Results

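Among the transcription factors that set the identity of deep-layer cortical neurons, Tbr1, Foxp2, Tle4 and Zfpm2 were higher in the libraries labelled as postmitotic Lhx2 mutants, and none of the 9 factors examined passed the test in those labelled as progenitor mutants. The 9 were chosen by name as the classical deep-layer fate regulators: Tbr1, Fezf2, Bcl11b, Sox5, Foxp1, Foxp2, Tle4, Zfpm2 and Etv1. All 9 were present in both gene tables, among 55353 symbols in the postmitotic and 25229 in the progenitor experiment, and all 9 had enough counts to be tested in each.

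The projection neurons of the neocortex are born in sequence, deep layers first, and a network of transcription factors that repress one another separates the layer VI neurons that project to the thalamus, the layer V neurons that project to the brainstem and spinal cord, and the upper-layer neurons that connect the hemispheres. Tbr1 is the T-box factor of layer VI corticothalamic identity, Fezf2 is the zinc finger selector gene of layer V subcerebral neurons, and Bcl11b (CTIP2) acts downstream of Fezf2 in the growth of their axons. Lhx2 is a LIM-homeodomain factor of cortical progenitors that postmitotic neurons of the upper layers continue to express.

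RNA was sequenced from layer II/III tissue microdissected from mice at postnatal day 5, after electroporation in utero at embryonic day 15.5, when upper-layer neurons are being born. All 14 libraries came from animals with both Lhx2 alleles floxed (Lhx2lox/lox), and all received an EGFP-expressing plasmid. The postmitotic libraries labelled mutant (n = 3) came from NexCre/+; Lhx2lox/lox animals given EGFP, and their controls (n = 3) from Lhx2lox/lox animals given EGFP. The progenitor libraries labelled mutant (n = 4) came from Lhx2lox/lox animals given Cre-EGFP, and their controls (n = 4) from Lhx2lox/lox animals given EGFP. NexCre is driven from the Neurod6 locus in young excitatory neurons of every cortical layer, not only in the electroporated cells, whereas the Cre-EGFP plasmid acts in the cells that take it up. The NexCre allele itself was carried only by the postmitotic mutants. The labels do not say whether EGFP cells were sorted or whether replicates were separate animals, so p-values measure the spread between these libraries.

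The libraries held 24078099 to 25891416 counts in postmitotic libraries labelled mutant, 21605777 to 25150658 in postmitotic controls, 22677019 to 24002981 in progenitor libraries labelled mutant and 24947089 to 29497595 in progenitor controls. The 9 factors received between 272 counts (Zfpm2) and 7551 counts (Foxp1) per library. Lhx2 was not lower in the libraries labelled mutant. It averaged 179 ± 7.41 CPM (the gene's count scaled to the size of the library, cpm; SD, n = 3) in postmitotic libraries labelled mutant and 147 ± 3.48 CPM in their controls, with a log2 fold change of 0.29 ± 0.062 (SE; adjusted p = 0.0276, edgeR quasi-likelihood test). In the progenitor experiment it averaged 129.5 ± 11.4 CPM in libraries labelled mutant and 127.5 ± 9.10 CPM in controls (SD, n = 4 each; log2 fold change 0.02 ± 0.072, adjusted p = 0.847, edgeR). The libraries are therefore given by their labels throughout, as mutant 1 to 3 or 1 to 4. Whole-gene counts do not separate transcripts with and without the floxed part. Markers of upper-layer neurons were present in all 14 libraries: Cux2, a homeobox factor of upper-layer neurons, ranged from 378 to 435 CPM in postmitotic libraries labelled mutant, 355 to 367 in their controls, 224 to 338 in progenitor libraries labelled mutant and 208 to 280.2 in their controls. Counts from 4 Y-linked genes exceeded 1 CPM in 1 of 3 postmitotic libraries labelled mutant, 2 of 3 postmitotic controls, 3 of 4 progenitor libraries labelled mutant and 0 of 4 progenitor controls, so the sexes were unevenly spread over the groups. In progenitor mutant 3, Xist stood at 554 CPM although the 4 Y-linked genes summed to 99.4 CPM. Because these are bulk samples, fewer cells of a type and less RNA per cell cannot be told apart.

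All 9 factors were detected in the layer II/III tissue at P5, at levels that spanned more than an order of magnitude. Per kilobase of annotated exon, the postmitotic controls held 17.8 ± 0.430 CPM of Foxp1 (forkhead factor of layers III to VI), 16.0 ± 2.49 of Fezf2, 15.7 ± 0.429 of Tbr1, 12.2 ± 1.11 of Bcl11b and 7.47 ± 0.266 of Tle4 (SD, n = 3). Sox5 followed with 4.42 ± 0.319 CPM per kilobase, Etv1 with 3.79 ± 0.164, Zfpm2 with 1.39 ± 0.147 and Foxp2 with 0.990 ± 0.0804. The order was Tbr1, Foxp1, Fezf2, Tle4, Bcl11b, Sox5, Etv1, Zfpm2 and Foxp2 in the progenitor controls, with 19.3 ± 3.22, 17.6 ± 1.27, 17.2 ± 2.43, 9.72 ± 2.51, 8.97 ± 1.54, 5.34 ± 0.953, 2.89 ± 0.617, 1.64 ± 0.438 and 1.40 ± 0.427 CPM per kilobase (SD, n = 4). Neighbours within the leading trio, Tle4 and Bcl11b in the progenitor controls, and Zfpm2 and Foxp2 there, did not differ beyond their spread. Tbr1 in controls thus lay above 80.2% of the genes tested in the postmitotic and 82.3% in the progenitor experiment, and Foxp2 above 24.4% and 24.7%. The lengths are unions of all annotated exons, so a gene with many alternative exons is placed lower by them.

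**Figure D1:**
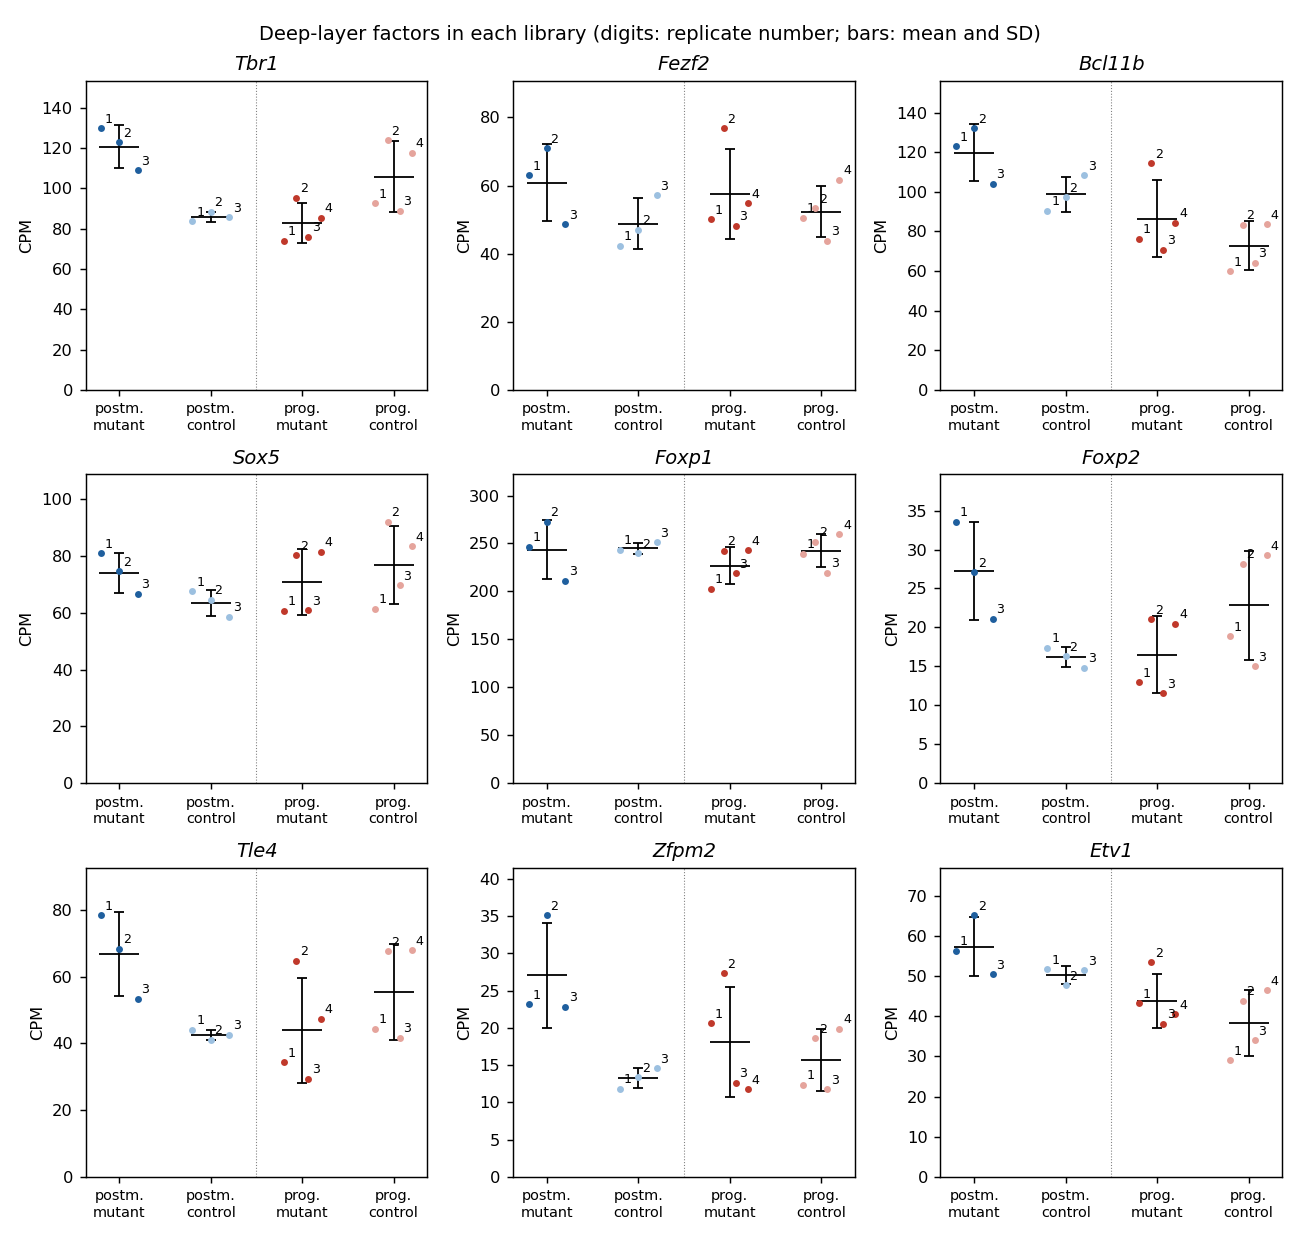
CPM of each factor in every library (digits are replicate numbers), with the mean and SD of each group, in postmitotic libraries labelled mutant, postmitotic controls, progenitor mutants and progenitor controls; each panel has its own linear axis. Tbr1, Foxp2, Tle4 and Zfpm2 lie higher in all 3 postmitotic libraries labelled mutant than in all 3 postmitotic controls, and the progenitor groups overlap in every panel.

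In the postmitotic experiment, 4 of the 9 factors were higher and 0 lower at an adjusted p under 0.05 (edgeR quasi-likelihood test, Benjamini-Hochberg over all 17775 genes tested). Over all genes 0.895% were called higher and 1.06% lower, 1.96% in all. The same 4 were above the controls in every mutant library, against 7.98% of all genes, and 0 were below, against 8.43% of all genes. At an unadjusted p under 0.05 the count was 6, where 2024 of the 17775 genes had such a p (edgeR). The median log2 fold change of the 9 was 0.32, against -0.0022 over all genes, and 8 of the 9 estimates were positive. The factors varied together across libraries (Pearson r up to 0.965), so these estimates are not independent of one another.

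Tbr1 had 129.9, 123 and 109 CPM in the 3 postmitotic libraries labelled mutant, against 83.7, 88.4 and 85.7 CPM in their controls. The groups did not overlap, and mutant 3 was the lowest of the mutants. The mean was 121 ± 10.7 CPM in libraries labelled mutant and 85.9 ± 2.35 CPM in controls (SD, n = 3 each), and the log2 fold change was 0.49 ± 0.074 (SE; 1.40-fold; adjusted p = 0.003, edgeR). Tbr1 was called higher under all 13 alternatives run for this comparison, with adjusted p up to 0.0192 (edgeR without control 2).

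Zfpm2 (FOG2, a cofactor of GATA factors found in corticothalamic neurons) showed the largest fold of the 9. It had 23.2, 35.2 and 22.8 CPM in postmitotic libraries labelled mutant, against 11.8, 13.4 and 14.6 CPM in controls. Mutant 2 was the highest library, and the groups did not overlap. The log2 fold change was 1.03 ± 0.166 (SE; 2.04-fold, n = 3 each; adjusted p = 0.00951, edgeR). Without control 1 the log2 fold change was 0.95 (adjusted p = 0.0665), and without control 2 it was 1.04 (adjusted p = 0.0609, edgeR).

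Foxp2, a forkhead factor of layer VI neurons that is also abundant in the striatum, had 33.6, 27.1 and 21.1 CPM in postmitotic libraries labelled mutant and 17.4, 16.3 and 14.8 CPM in controls. The lowest mutant lay above the highest control. The log2 fold change was 0.75 ± 0.149 (SE; 1.68-fold, n = 3 each; adjusted p = 0.0229, edgeR). This call was lost without any one of the 3 controls or without mutant 2 (adjusted p 0.0758 without control 1, 0.124 without control 2, 0.099 without control 3 and 0.088 without mutant 2, edgeR), with limma-voom (0.0525), and with Y-linked counts as a covariate (0.0885, edgeR). The log2 fold change was 0.67 to 0.81 in these fits.

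Tle4, a Groucho-family corepressor of corticothalamic neurons, had 78.5, 68.5 and 53.5 CPM in postmitotic libraries labelled mutant and 44.1, 41.1 and 42.6 CPM in controls. The controls lay within a narrow band that all 3 mutants exceeded. The log2 fold change was 0.65 ± 0.118 (SE; 1.57-fold, n = 3 each; adjusted p = 0.0156, edgeR). The call was lost without control 1, 2 or 3 or without mutant 2 (adjusted p 0.0865, 0.105, 0.0598 and 0.0719, edgeR), with log2 fold changes of 0.68, 0.62, 0.65 and 0.64.

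The factors of layer V did not pass the test, although Fezf2 (adjusted p = 0.00787) and Bcl11b (adjusted p = 0.00782) did in edgeR without a filter on low counts. Fezf2 had 63.0, 71.0 and 48.6 CPM in postmitotic libraries labelled mutant and 42.3, 47.1 and 57.2 CPM in controls, so the groups overlapped. Its log2 fold change was 0.32 (95% interval -0.03 to 0.67; adjusted p = 0.480, edgeR). Bcl11b had 123, 132 and 104 CPM in libraries labelled mutant and 90.6, 97.1 and 108 CPM in controls, with mutant 3 below control 3. Its log2 fold change was 0.28 (95% interval 0.08 to 0.48; adjusted p = 0.212, edgeR). Etv1, an ETS factor of layer V neurons, had 56.4, 65.3 and 50.5 CPM in libraries labelled mutant and 51.7, 47.8 and 51.5 CPM in controls, again overlapping (log2 fold change 0.19, 95% interval -0.01 to 0.39; adjusted p = 0.460, edgeR).

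Sox5, a SoxD factor that controls the sequential generation of corticofugal neurons, had 80.9, 74.7 and 66.7 CPM in postmitotic libraries labelled mutant and 67.6, 64.6 and 58.6 CPM in controls (log2 fold change 0.22 ± 0.085, SE; adjusted p = 0.315, edgeR). Foxp1, which reaches into layer III, was the closest to equal of the 9, with 247, 273 and 211 CPM in libraries labelled mutant and 244, 239.9 and 251 CPM in controls. Its log2 fold change of -0.01 had a 95% interval of -0.19 to 0.17 (adjusted p = 0.981, edgeR).

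The authors' deposited table for the postmitotic experiment called 6 of the 9 factors: Tbr1, Foxp2, Tle4 and Zfpm2, and in addition Fezf2 with a log2 fold change of 0.59 (adjusted p = 0.000603) and Bcl11b with 0.45 (adjusted p = 0.00289). The mean counts in the authors' deposited table equalled those of replicates 1 and 2 of each group within 0.1% for 100% of 17372 genes, and those of all 6 libraries for 0.79% of 17296. Replicate 3 was the lowest mutant for all 9 factors. With replicates 1 and 2 of each group alone, edgeR also called 6 of the 9, with Fezf2 at 0.59 (adjusted p = 0.0102) and Bcl11b at 0.45 (adjusted p = 0.0246).

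Mutant 3 was also the only postmitotic mutant with Y-linked counts. Set against controls 1 and 2, which have them too, it was above both for 6 factors and below both for 1 (Foxp1), with log2 ratios of 0.34 for Tbr1, 0.86 for Zfpm2, 0.32 for Foxp2 and 0.33 for Tle4. Mutants 1 and 2, without Y-linked counts, were above control 3 for 8 factors, with log2 ratios of 0.56 for Tbr1, 1.0 for Zfpm2, 1.03 for Foxp2 and 0.79 for Tle4. Each of these sets holds 1 library of a group, so no test was made. How many of all genes were ordered in this way was not counted, so the counts of factors have no background.

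In the progenitor experiment, 0 of the 9 factors were called by edgeR, where 23.4% of the 15295 genes tested were called. At an unadjusted p under 0.05 the count was 1, Tbr1, where 5676 of the 15295 genes had such a p (edgeR). DESeq2 called 1 and limma-voom 0. The median log2 fold change of the 9 was -0.10, against 0.004 over all genes, with 4 estimates positive. Mutant and control libraries overlapped for all 9, where 13.7% of all genes had every mutant above every control and 13.3% every mutant below.

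Tbr1 had 74.1, 95.5, 76.0 and 85.4 CPM in progenitor libraries labelled mutant and 92.7, 124, 88.9 and 118 CPM in controls. Mutant 2 reached the range of the controls, above controls 1 and 3. The mean was 82.7 ± 9.81 CPM in libraries labelled mutant and 106 ± 17.6 CPM in controls (SD, n = 4 each), and the log2 fold change was -0.36 ± 0.123 (SE; 95% interval -0.63 to -0.08; adjusted p = 0.0652, edgeR). The adjusted p was 0.0143 with DESeq2, 0.0276 without control 3 and 0.0403 without mutant 2 (edgeR). The authors' deposited table for the progenitor experiment lists Tbr1 at -0.36 with an adjusted p of 0.014, the only one of the 9 under 0.05 there.

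Foxp2 had 13.0, 21.1, 11.5 and 20.5 CPM in progenitor libraries labelled mutant and 18.9, 28.2, 15.0 and 29.2 CPM in controls (log2 fold change -0.47, 95% interval -1.13 to 0.19; adjusted p = 0.273, edgeR). Tle4 had 34.3, 64.8, 29.4 and 47.4 CPM in libraries labelled mutant and 44.4, 67.6, 41.7 and 67.9 CPM in controls (log2 fold change -0.34 ± 0.295, SE; adjusted p = 0.457, edgeR). Zfpm2 had 20.7, 27.3, 12.6 and 11.8 CPM in libraries labelled mutant and 12.4, 18.6, 11.8 and 19.9 CPM in controls (log2 fold change 0.20 ± 0.315, SE; adjusted p = 0.680, edgeR). For each of these layer VI genes the libraries within a group were spread as widely as the groups were apart, and the log2 fold change of Tle4 was between -0.58 and -0.18 with a library left out.

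Fezf2 had 50.2, 76.9, 48.2 and 54.9 CPM in progenitor libraries labelled mutant and 50.5, 53.3, 43.8 and 61.7 CPM in controls (log2 fold change 0.14 ± 0.161, SE; adjusted p = 0.583, edgeR). Bcl11b had 76.2, 114, 70.7 and 84.4 CPM in libraries labelled mutant and 59.9, 83.4, 64.2 and 83.5 CPM in controls (log2 fold change 0.25 ± 0.175, SE; adjusted p = 0.343, edgeR). For both, mutant 2 was the highest library of the 8. Etv1 (log2 fold change 0.19 ± 0.162), Sox5 (-0.12 ± 0.150) and Foxp1 (-0.10 ± 0.071; SE, n = 4 each) had adjusted p of 0.431, 0.620 and 0.350 (edgeR). With Y-linked counts as a covariate the progenitor log2 fold change was -0.53 for Tbr1, -0.87 for Foxp2, -0.74 for Tle4, -0.36 for Sox5, -0.27 for Foxp1, 0.36 for Zfpm2, 0.15 for Etv1, 0.04 for Bcl11b and -0.08 for Fezf2, and 0 of the 9 were called (edgeR; Tbr1 and Foxp1 had an unadjusted p under 0.05).

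Mutant 1 was the progenitor library labelled mutant without Y-linked counts, and no progenitor control had them. Set against the 4 controls, it was below all of them for 5 factors (Tbr1, Sox5, Foxp1, Foxp2 and Tle4) and above all of them for 1 (Zfpm2), with log2 ratios to their mean of -0.52 for Tbr1, -0.82 for Foxp2 and -0.69 for Tle4. With 1 library on a side, no test was made. The share of all genes ordered in this way was not counted, so these counts have no background to be read against.

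The factors varied together from library to library within the progenitor groups. Controls 2 and 4 held the highest pair of values among the controls for all 9 factors. Mutant 2 was in the highest pair of the mutants for all 9 and was the highest for 7, and mutant 4 was in the highest pair for 7. The summed level of the 9 was 575, 776, 567 and 669 CPM in progenitor libraries labelled mutant and 609, 763, 589 and 769.6 CPM in controls. In the postmitotic experiment the sum was 835, 869.7 and 687 CPM in libraries labelled mutant and 653, 656 and 685 CPM in controls, so mutant 3 lay next to control 3. The coefficient of variation of single factors was 8.83% to 25.9% in postmitotic libraries labelled mutant, 2.41% to 15.6% in postmitotic controls, 8.58% to 40.6% in progenitor libraries labelled mutant and 7.21% to 30.6% in progenitor controls.

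**Figure D2:**
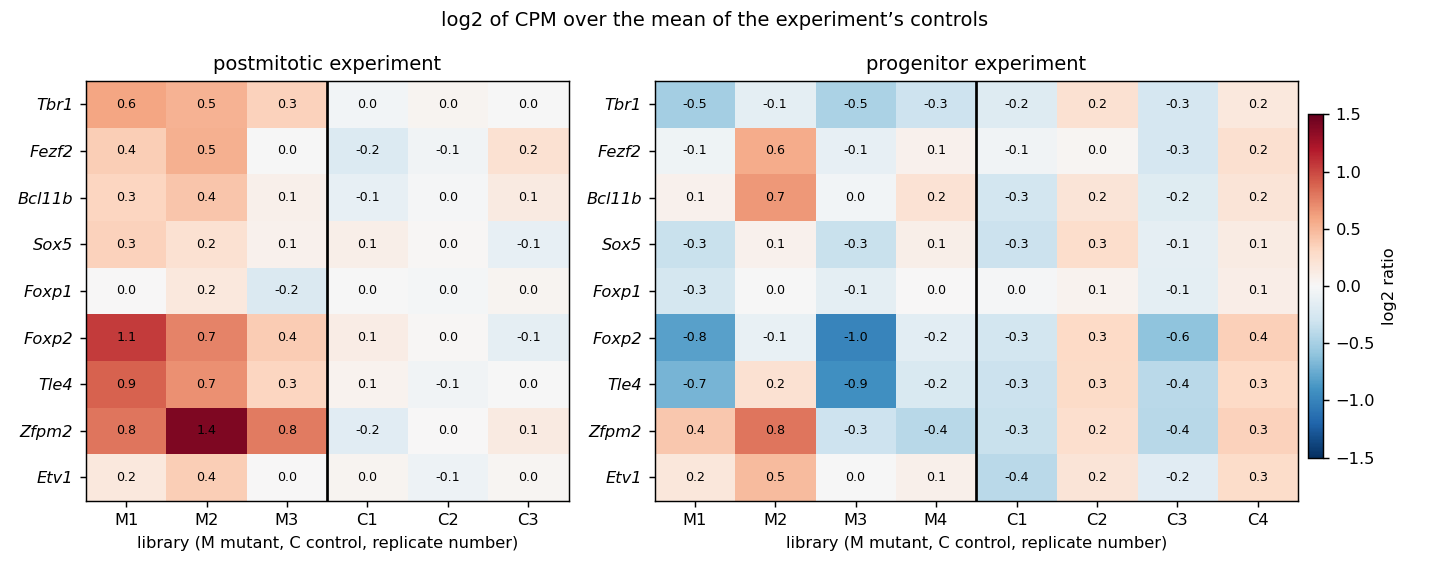
Log2 ratio of each factor's CPM in each library to the mean of its experiment's controls, mutant libraries left of control libraries, postmitotic experiment on the left and progenitor experiment on the right. Within their own groups, progenitor mutant 2 and controls 2 and 4 are high, and mutant 3 is the lowest library for 5 of the 9 factors and control 3 for 6.

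With each library's log2 CPM taken relative to the mean of its experiment, Pearson r between pairs of the 9 factors ranged from 0.213 (Foxp1 and Zfpm2) to 0.965 (Foxp2 and Tle4) over the 14 libraries. Over these libraries and among 10859 genes above 5 CPM, the gene most like Foxp2 was Tle4 (Pearson r = 0.965, Spearman rho = 0.982). Nptx1, a secreted neuronal pentraxin, was the gene most like Tbr1 (r = 0.965, rho = 0.969) and the second most like Foxp2 (r = 0.953) and Tle4 (r = 0.945). The gene most like Fezf2 was Bcl11b (r = 0.903, rho = 0.881), and the gene most like Bcl11b was Etv1 (r = 0.911, rho = 0.873). For Sox5 it was the kainate receptor gene Grik3 (r = 0.927), for Zfpm2 the glucuronyltransferase gene B3gat1 (r = 0.943), for Etv1 the adhesion gene Mdga2 (r = 0.939) and for Foxp1 Ccdc181 (r = 0.899). These are descriptions of libraries that share tissue, dissection and group differences, and carry no test.

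The change in Tbr1 differed between the experiments. In 1 fit of all 14 libraries, its log2 fold change was 0.85 ± 0.163 higher (SE; 95% interval 0.50 to 1.19) in the postmitotic than in the progenitor experiment (adjusted p = 0.00755, edgeR interaction term). Tbr1 was the 1 member called, where 6.94% of the 15643 genes tested were called (3.1% higher, 3.84% lower). At an unadjusted p under 0.05 (edgeR) there were 3 members, and 3644 of the 15643 genes. The differences for Foxp2 of 1.22 (95% interval 0.38 to 2.06; adjusted p = 0.0813, edgeR), Tle4 of 0.99 (0.14 to 1.84; adjusted p = 0.153) and Zfpm2 of 0.83 (-0.12 to 1.77; adjusted p = 0.276) had wider intervals than that of Tbr1 and did not pass the test. Fezf2 (0.18 ± 0.254), Bcl11b (0.03 ± 0.236), Etv1 (-0.00 ± 0.216), Sox5 (0.34 ± 0.200) and Foxp1 (0.09 ± 0.118; SE) did not pass the test, with adjusted p from 0.336 to 1.0 (edgeR). The experiments also differ in the Cre source and in the cells it reaches, and their tables were made separately, so these cannot be told apart from the timing of deletion.

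**Figure D3:**
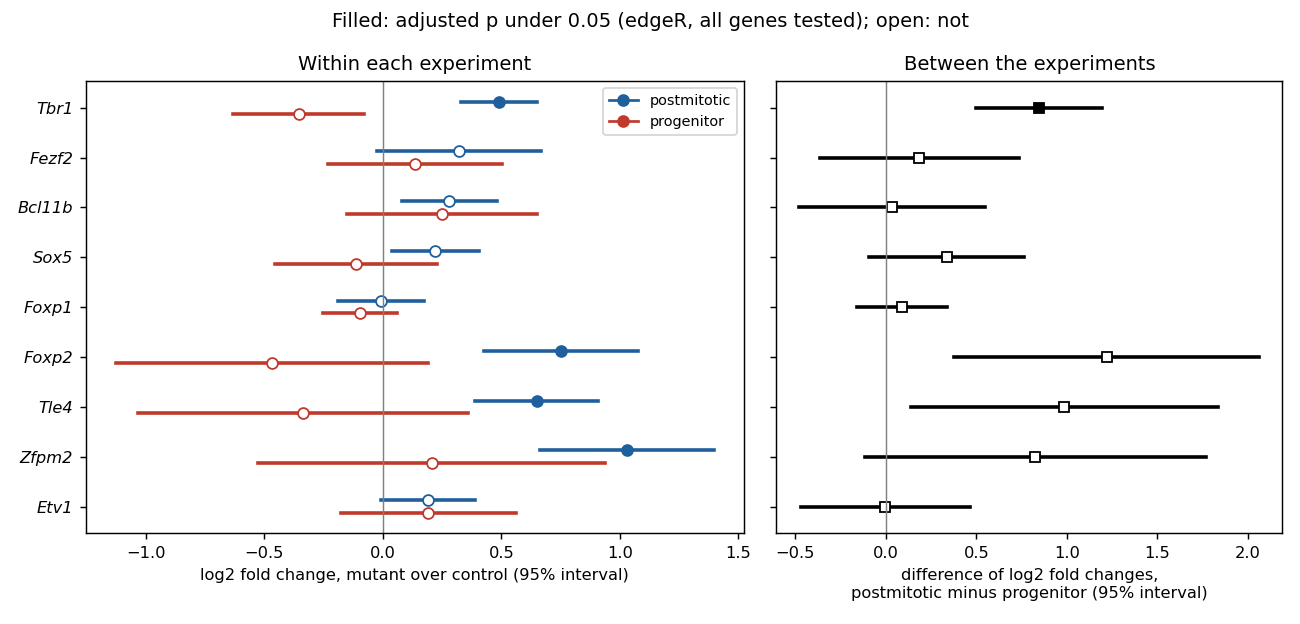
Log2 fold changes of the 9 factors, mutant over control, with 95% intervals in the postmitotic (blue) and progenitor (red) experiments on the left, and the difference of the log2 fold changes, postmitotic minus progenitor, on the right; filled symbols have an adjusted p under 0.05 (edgeR). Tbr1 is the factor whose difference is filled, at 0.85, with Foxp2 at 1.22, Tle4 at 0.99 and Zfpm2 at 0.83 open.

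Tbr1 lies on chromosome 2 (61802930 to 61814114, plus strand), Zfpm2 on chromosome 15 (40655035 to 41104592, plus), Foxp2 on chromosome 6 (14901349 to 15441977, plus) and Tle4 on chromosome 19 (14448150 to 14598051, minus strand; GRCm38/mm10), so the called factors were not neighbours. Fezf2 lies on chromosome 14 (12342094 to 12348189, minus), Bcl11b on chromosome 12 (107910403 to 108003602, minus) and Etv1 on chromosome 12 as well (38779380 to 38870484, plus). Sox5 (143828425 to 144781977, minus) and Foxp1 (98925338 to 99522721, minus) are on chromosome 6. An exon of the antisense gene Sox5os1 overlaps Sox5, and Gm20696 and Gm49348 overlap exons of Foxp1 on the same strand, so the counts of these genes are uncertain to that extent.

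Promoter windows of 300 bases, 250 before and 50 after an annotated start, were found in RefSeq (GRCm38.p6) for 7 of the 9 factors, 11 windows in all, and not for Foxp2 and Zfpm2. They were searched for TAATTA, the core bound by LIM-homeodomain proteins such as Lhx2, which reads the same on both strands, and for GGTGTGA, the core of the T-box motif, on both strands. TAATTA was in 2 of the 11 windows, where 5.29% of all 32851 windows hold it: the Tbr1 window has 2 copies, beginning 33 and 18 bases before the start, and 1 of the Foxp1 windows has 1 copy 240 bases before the start. GGTGTGA was in 0 of the 11, where 3.98% of all windows hold it. A match describes the letters in the window and was not tested for binding. The windows of Tbr1 (chr2:61804203-61804502, plus strand) and Tle4 (the first of 2, chr19:14598134-14598433, minus strand), which were called in the postmitotic experiment, are shown with those of Fezf2 (chr14:12345816-12346115, minus strand) and Bcl11b (chr12:108003365-108003664, minus strand), which were not, each 5′ to 3′ on the strand of the gene with TAATTA in capitals.
Tbr1: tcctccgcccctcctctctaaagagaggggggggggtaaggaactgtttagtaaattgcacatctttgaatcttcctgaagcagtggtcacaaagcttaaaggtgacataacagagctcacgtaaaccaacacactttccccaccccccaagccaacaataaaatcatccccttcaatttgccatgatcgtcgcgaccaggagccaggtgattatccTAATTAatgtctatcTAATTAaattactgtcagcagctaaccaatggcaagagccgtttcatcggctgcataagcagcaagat
Tle4: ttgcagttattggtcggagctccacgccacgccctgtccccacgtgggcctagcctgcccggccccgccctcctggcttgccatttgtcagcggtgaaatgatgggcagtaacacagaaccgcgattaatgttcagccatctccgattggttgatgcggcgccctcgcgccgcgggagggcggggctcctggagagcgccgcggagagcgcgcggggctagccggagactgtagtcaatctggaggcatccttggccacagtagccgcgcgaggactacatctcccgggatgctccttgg
Fezf2: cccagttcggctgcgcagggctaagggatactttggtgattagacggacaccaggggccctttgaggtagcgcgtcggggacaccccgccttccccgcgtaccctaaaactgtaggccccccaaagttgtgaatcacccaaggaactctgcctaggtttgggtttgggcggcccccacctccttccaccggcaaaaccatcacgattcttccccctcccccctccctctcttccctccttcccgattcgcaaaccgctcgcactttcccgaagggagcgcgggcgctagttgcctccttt
Bcl11b: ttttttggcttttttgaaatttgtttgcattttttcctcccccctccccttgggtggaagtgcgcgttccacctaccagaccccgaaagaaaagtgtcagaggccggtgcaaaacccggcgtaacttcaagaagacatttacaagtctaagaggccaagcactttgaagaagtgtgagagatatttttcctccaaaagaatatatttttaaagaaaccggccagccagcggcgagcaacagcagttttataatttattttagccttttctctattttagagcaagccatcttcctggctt
The Tbr1 window holds 46.0% G and C, the Bcl11b window 43.0%, the Fezf2 window 61.3% and the Tle4 window 65.0%.

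Other genes of the deep layers and the subplate did not all move with the 4 factors. Of 43 such genes tested in the postmitotic experiment, 6 were higher and 3 lower, where 0.895% of all genes were higher and 1.06% lower. Their median log2 fold change was 0.27, against -0.0022 over all genes. Ldb2, a LIM-domain-binding cofactor of layer V neurons, was higher by 0.91 ± 0.09, the sulfatase gene Sulf2 by 0.61 ± 0.07 and Thsd7b by 0.99 ± 0.12 (log2, SE; adjusted p 0.000142, 0.000256 and 0.0006, edgeR). Lmo3, a LIM-only protein gene, fell by 1.01 on the log2 scale, the axon guidance gene Sema3e by 0.66 and Wnt7b by 0.58 (adjusted p 5.13e-05, 0.0177 and 0.0405, edgeR). The calls for Sema3e and Wnt7b were lost under 3 and 7 of 13 alternatives. The 9 calls of this list became 16 with DESeq2, 18 without a filter on low counts, and 5 without control 1 or control 2. The list's summed level was 1774, 1781 and 1552 CPM in postmitotic libraries labelled mutant and 1402, 1417 and 1443 CPM in controls, with no overlap.

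In the progenitor experiment 3 of the 43 were higher and 6 lower, 9 in all, with a median of -0.14; 23.4% of all genes were called. Ppfibp1 (0.76 ± 0.08), Diaph3 (0.80 ± 0.21) and Nfe2l3 (0.41 ± 0.11) were higher, and Wnt7b (-0.56 ± 0.11), Pcp4 (-0.40 ± 0.09) and Kcnab1 (-0.85 ± 0.18) were among the lower (log2, SE; adjusted p 0.000153 to 0.0192, edgeR). With Y-linked counts as a covariate 3 of the 43 were called, and the calls of Nfe2l3, Pcp4 and Kcnab1 were lost. Y-linked counts exceeded 1 CPM in 3 of 4 progenitor libraries labelled mutant and 0 of 4 controls. The covariate thus largely follows the label there, and a lost call does not separate sex from label. The summed level was 1507, 1793, 1378 and 1628 CPM in progenitor libraries labelled mutant and 1556, 1901, 1520 and 1984 CPM in controls, which overlapped.

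Close relatives of the 9 factors, such as other Tle, Foxp and Sox genes, were called for 0 of 13 in the postmitotic experiment by edgeR, with 1 at an unadjusted p under 0.05 and 0 with DESeq2 and limma-voom. In the progenitor experiment 2 of 13 were higher: the Groucho genes Tle2, at 45.4 ± 3.99 CPM in libraries labelled mutant and 29.4 ± 1.79 CPM in controls (log2 fold change 0.63, adjusted p = 0.000255, edgeR), and Tle1 (0.23, adjusted p = 0.0425), whose call was lost under 6 of 14 alternatives. Of 23 known regulators and partners of the deep-layer programme, 3 were higher and 1 lower in the postmitotic experiment, where 1.96% of all genes were called, and 7 were higher and 3 lower in the progenitor experiment, where 23.4% were. Neurod2, a bHLH factor of excitatory neurons, was higher in both (0.51 ± 0.09 postmitotic, adjusted p = 0.0103; 0.30 ± 0.06 progenitor, adjusted p = 0.00383; edgeR). The call of Neurod2 was lost without postmitotic control 2. Neurod6, whose locus carries NexCre in the postmitotic mutants, was lower there (-0.61 ± 0.11, adjusted p = 0.0135, edgeR), a call lost without postmitotic control 1 or control 2 (adjusted p up to 0.08).

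Of 20 upper-layer and callosal genes, 2 were higher and 5 lower in the postmitotic experiment (median -0.03; 1.96% of all genes called), and 5 higher and 1 lower in the progenitor experiment (median 0.02; 23.4% of all genes called). The LIM-only gene Lmo4 fell by 1.25 and the layer II to IV homeobox gene Cux1 by 0.47 (log2) in postmitotic libraries labelled mutant (adjusted p 1.88e-07 and 0.000813, edgeR). Dkk3, a secreted glycoprotein gene, was higher there by 0.53 (adjusted p = 0.00355, edgeR). The other of the 2 higher genes was Lhx2 itself, whose call was lost under 7 of 13 alternatives. Among progenitor libraries, Inhba, which encodes an activin subunit, was higher in those labelled mutant by 1.07, Mdga1 by 0.53 and Pou3f3, a POU factor of upper layers, by 0.37, and Kitl fell by 0.36 (adjusted p 0.000174, 0.0016, 0.00237 and 0.00706, edgeR). With Y-linked counts as a covariate 3 of these 20 were called in the progenitor experiment in place of 6, and 4 of the 23 regulators and partners in place of 10; Pou3f3, Kitl and Neurod2 were among those lost.

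**Figure D4:**
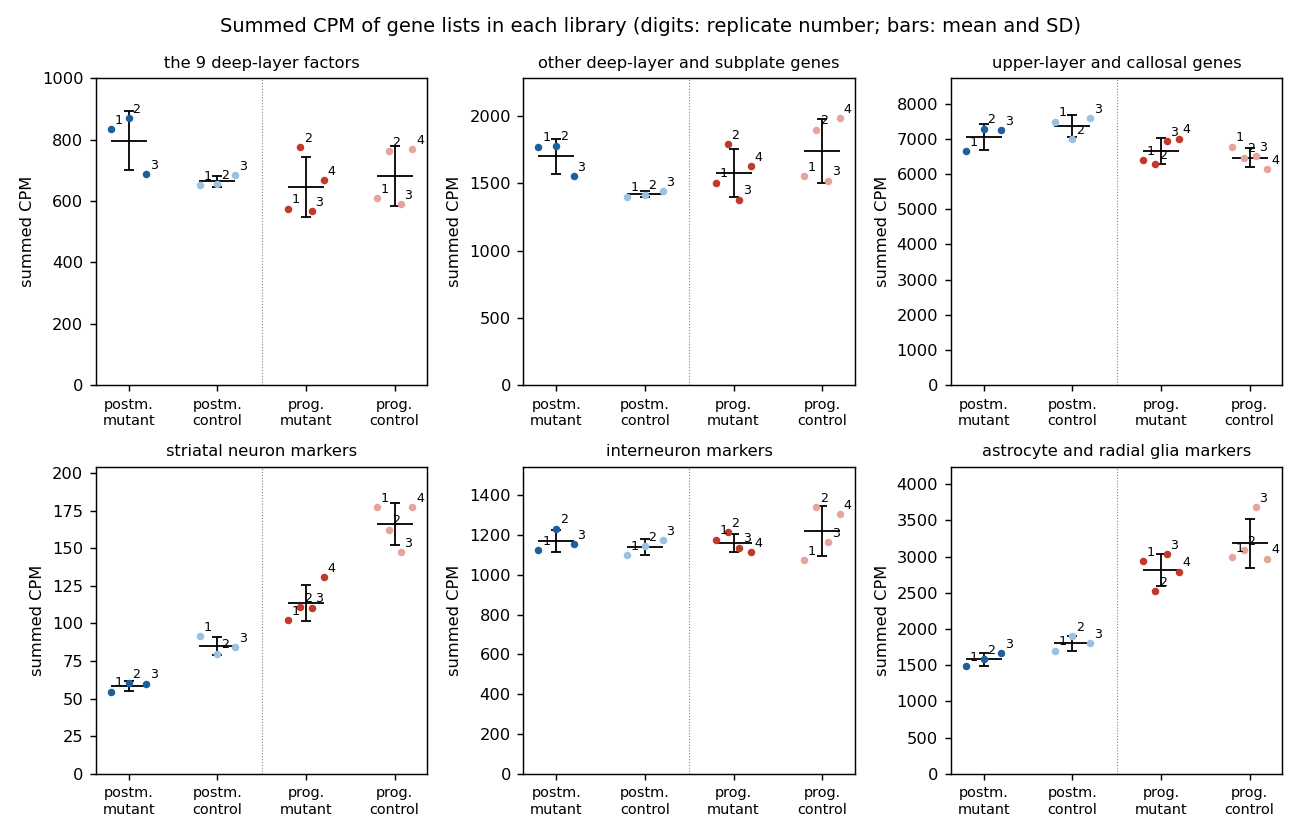
Summed CPM of 6 gene lists in each library (points), with mutant libraries left of controls for the postmitotic and the progenitor experiment. The other deep-layer and subplate genes sum to 1552 to 1781 CPM in postmitotic libraries labelled mutant and 1402 to 1443 CPM in their controls.

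Markers of other cells in the tissue were summed in each library. Foxp1, Foxp2 and Bcl11b are also expressed by striatal projection neurons, whose markers summed to 54.5 to 60.2 CPM in postmitotic libraries labelled mutant and 79.7 to 91.7 CPM in controls. In the progenitor experiment they summed to 102 to 131 CPM in libraries labelled mutant and 148 to 177 CPM in controls, with 3 of 12 lower. The striatal markers Isl1, Six3 and Scn4b were under 1 CPM in every library. Thalamic neuron markers summed to 197 to 224 CPM in postmitotic libraries labelled mutant and 265 to 293 CPM in controls. Of these, 2 of 8 were lower (Slc17a6, -1.08 ± 0.11, adjusted p = 0.000142, and Cdh6, edgeR), where 1.06% of all genes were lower. Gbx2 was under 1 CPM in every library. Interneuron markers summed to 1123 to 1231 CPM in postmitotic libraries labelled mutant and 1098 to 1174 CPM in controls, with 0 of 24 called by edgeR (3 at an unadjusted p under 0.05, 1 with DESeq2, 0 with limma-voom). Astrocyte and radial glia markers summed to 1486 to 1667 CPM in postmitotic libraries labelled mutant and 1697 to 1897 CPM in controls, and to 2525 to 3034 against 2971 to 3683 CPM in progenitor libraries labelled mutant and controls, with 0 of 16 called in the postmitotic experiment (7 at an unadjusted p under 0.05, 2 with DESeq2, 0 with limma-voom) and 1 higher and 5 lower in the progenitor experiment (edgeR). Oligodendrocyte lineage markers summed to 359 to 427 CPM in postmitotic libraries labelled mutant and 405 to 453 in controls, microglial markers to 69.6 to 84.1 and 79.5 to 88.5, and endothelial and mural markers to 252 to 307 and 279 to 325, with 0 called in each of these 3 lists by edgeR, DESeq2 or limma-voom and 0, 0 and 1 at an unadjusted p under 0.05. In the progenitor experiment 2 of 24 interneuron markers were higher and 3 lower, and 2 of 14 microglial markers were lower (edgeR). Higher there were 3 of 12 oligodendrocyte lineage markers and 4 of 13 endothelial and mural markers, with Cspg4 in both lists. Of all 15295 genes, 1838 were called higher and 1739 lower, 23.4% in all. Estimates were positive for 13 of 13 endothelial and mural, 0 of 14 microglial, 3 of 12 oligodendrocyte lineage and 12 of 24 interneuron markers. The median log2 fold changes were 0.37, -0.35, -0.19 and -0.003 in that order, against 0.004 over all genes. Over all genes of the postmitotic experiment, 2024 of 17775 had an unadjusted p under 0.05 (edgeR). The part of these cells in the levels of the 9 factors was not tested.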

How the data were processed

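Libraries of polyadenylated RNA, made with a strand-marking kit and read for 150 bases from both ends per the labels' protocols, were given as whole-number counts per gene symbol, deposited by the authors without normalization, in a separate table for each experiment. Per the submitters' processing notes, HISAT2, featureCounts, DESeq2 and build mm10 were used, and the versions, the annotation and whether strand was used in counting are not stated in what was used here. The authors also deposited a DESeq2 results table per experiment: per the file headers it holds a mean normalised count per gene (a signal over the pooled libraries), a log2 fold change with its SE, a Wald score, and p-values with adjusted p-values, in which missing values had been replaced by 0.

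Mutant and control libraries were compared within each experiment in edgeR 4.0.16 under R 4.3.3 (filterByExpr, TMM, robust quasi-likelihood fit and F test), with Benjamini-Hochberg adjustment over all genes tested and calls at an adjusted p under 0.05. The fits gave a common biological coefficient of variation of 0.112 for the postmitotic and 0.110 for the progenitor libraries. The SE is the log2 fold change over the square root of F, intervals are 95%, and CPM use TMM-scaled library sizes. The difference between experiments was the interaction term over 24690 shared symbols. DESeq2 1.42.0, limma-voom (limma 3.58.1), RLE scaling, no filter, the replicate number as a block, each library left out, Y-linked CPM as a covariate, and postmitotic replicates 1 and 2 alone were the alternatives; the Y-linked covariate in the postmitotic experiment and the values within sex were added after seeing the data. The fits were tested on simulated data with a coefficient of variation of 0.11 for every gene, whereas single factors varied by up to 40.6% within a group. Of simulated 1.5-fold changes, 57% were recovered in the postmitotic and 76% in the progenitor fit. Of 2-fold changes, 87% and 94% were recovered. False calls made up 5.26% and 8.60% of the calls. Limma-voom and the Y-linked covariate were run within each experiment and not for the difference between experiments.

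The 9 factors and the gene lists were chosen with earlier results of these data known. Besides the factors and Lhx2, the genes named are up to 3 called per list, experiment and direction with the smallest p, and the genes most correlated with each factor; the text gives a part of these. Gene positions and exon lengths are from GENCODE M21, where 96.6% of progenitor and 96.5% of postmitotic symbols were found. The files held 0 columns of other samples.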

Additional observations from a re-analysis of the deposited data

Results flagged for a closer look

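The log2 fold change of Tbr1 was 0.8471 higher in the postmitotic than in the progenitor experiment, and the difference itself passed the test (adjusted p = 0.00755, edgeR interaction term). Tbr1 was higher in 3 of 3 postmitotic libraries labelled mutant than in every control of that experiment, whereas the progenitor groups overlapped. The difference kept its call under all 18 alternatives run for it, with values from 0.76 to 0.93 and adjusted p up to 0.0257 (edgeR without postmitotic control 1). Y-linked CPM as a covariate was not among them, so the difference was not adjusted for the uneven spread of the sexes. Among the 18 progenitor groups of 4 libraries examined for a library far from the others (9 factors, mutants and controls), 0 had one by Dixon's test.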

How the results depend on the processing

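Among the 9 factors, the count called in the postmitotic experiment (4) ranged from 1 to 5 when 1 library was left out: it was 1 without control 1 or control 2 and 2 without control 3 or mutant 2. In the progenitor experiment the count (0) was 1 with DESeq2 and 0 to 1 with a library left out. For the difference between experiments the count (1) was 2 with DESeq2 and 1 to 2 with a library left out. Over all genes, the progenitor count of 3577 became 946 once Y-linked CPM entered as a covariate and 2383 to 3712 with a library left out, the postmitotic count of 348 was 723 without a filter on low counts and 160 to 467 with a library left out, and the count of 1086 for the difference was 1643 with DESeq2 and 598 to 1481 with a library left out. In the progenitor experiment the Y-linked covariate largely follows the label, so sex and label cannot be told apart in that fit. With it, the SE of the progenitor log2 fold change was larger for each of the 9 factors, with 0.193 against 0.123 for Tbr1 (edgeR). The cause of these changes was not tested. No called value changed sign under the alternatives run.

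Over the genes tested, libraries did not follow their replicate numbers. The correlations of deviations between same-numbered mutant and control libraries were -0.436, 0.011, -0.183 and 0.093 in the progenitor experiment. They were -0.099, 0.026 and -0.196 in the postmitotic experiment, and not every library correlated best with its own number. Among the 9 factors, however, progenitor controls 2 and 4 and mutant 2 were in the highest pair of their group for all 9, and mutant 4 for 7. The labels do not say whether same-numbered libraries belong together, so the block is given beside the main fit. With the replicate block, 3 of the 9 factors were called lower in the progenitor experiment (Tbr1, Foxp2 and Tle4, adjusted p 0.00469, 0.0035 and 0.0174, edgeR). There, 1516 of 15295 genes were called lower. In the postmitotic experiment 4 factors were called higher, where 111 of 17775 genes were. For the difference 3 factors were called, where 659 of 15643 genes were.

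The postmitotic calls of Foxp2, Tle4 and Zfpm2 were lost when certain single libraries were left out, with log2 fold changes of 0.69 to 0.81, 0.62 to 0.68 and 0.95 to 1.04 there, and progenitor controls hold no library with Y-linked counts. Lhx2 itself lost its postmitotic call under 7 of 13 alternatives. The 95% interval of the progenitor log2 fold change of Zfpm2 reached 0.94, so a fold near that of the postmitotic experiment was not resolved there.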
